A study of Mus musculus with 6 samples.

Results

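The T-cell receptor complex and the enzymes and adaptors that act directly beneath it were followed through 9 genes, chosen by symbol: the receptor chains Cd3d, Cd3e, Cd3g and Cd247, and the signalling genes Lck, Zap70, Lat, Lcp2 and Plcg1. They are 9 of the 55487 gene rows in each table, and all 9 were among the 14427 genes that passed the filter on low counts. The libraries came from cells sorted for CD45, the surface antigen of leukocytes, out of the spleen (3 libraries) and the mesenteric lymph node (mLN, which receives lymph from the gut; 3 libraries). All were from wild-type mice of the strain C57BL6/J and freshly prepared, and the labels give no other treatment. The labels give neither the age of the mice nor whether a library holds 1 animal or a pool.

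T cells recognise antigen through an alpha and beta (or gamma and delta) receptor chain pair that has almost no intracellular part. The pair is carried by the CD3 gamma, delta and epsilon chains and a zeta homodimer (product of Cd247), whose tails hold tyrosine motifs. The kinase Lck phosphorylates those motifs, Zap70 docks on them and phosphorylates the adaptors LAT and SLP-76 (product of Lcp2), and phospholipase C gamma 1 (product of Plcg1) is recruited to that scaffold to release calcium and diacylglycerol. The CD3 genes are largely restricted to T cells. Cd247, Lck and Zap70 are also used by natural killer (NK) cells, Lat by mast cells and platelets, Lcp2 by myeloid cells and platelets as well, and Plcg1 is expressed in many cell types.

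Libraries held 12584244 to 18119551 expected counts, and log2 levels across genes correlated at 0.984 to 0.989 within a tissue and 0.934 to 0.937 between tissues. Replicates of a tissue differed from each other beyond counting noise, by 2.51 to 2.96 times the squared difference that counting would give at the median, and all 6 libraries were kept. Separate animals are not stated for the replicates, so each p-value reflects just the spread among these libraries, which could be technical. The sort antigen gene Ptprc was present at 2191 ± 39 CPM (counts scaled to a library of 1000000, with scaling between libraries) in spleen, against 2675 ± 35 CPM in mLN (mean ± SD, n = 3). Of 9 pan-T marker genes that are not members, all 9 were higher in mLN, and all 8 pan-B markers were lower. Among all genes tested 21.8% were called higher in mLN and 23.8% lower. In bulk RNA, fewer cells of a type and less RNA per cell cannot be told apart.

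All 9 genes were higher in mLN, by 1.75-fold (Lcp2) to 2.63-fold (Lat), and for each of them every mLN library lay above every spleen library. By edgeR's quasi-likelihood test 45.5% of all genes tested differed between the tissues, 21.8% being higher in mLN and 23.8% lower, and 25.5% had all mLN libraries above all spleen libraries. Called rises of at least 2-fold, which 7 of the 9 genes made, were found in 3.67% of the genes tested. Together the 9 genes took 0.129% to 0.131% of a spleen library's counts and 0.269% to 0.275% of an mLN library's counts. The median log2 fold change was 1.10 over the 4 chains and 1.05 over the 5 kinases and adaptors, against -0.0018 over all genes tested. Since the spread between these libraries may be technical, edgeR's likelihood-ratio test was run with an assumed coefficient of variation. The assumed values were chosen after seeing the data. At 0.2 all 9 genes passed the threshold, and at 0.4 none of the 9 did, with edgeR adjusted p from 0.0553 (Lat) to 0.533 (Lcp2).

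**Figure D1:**
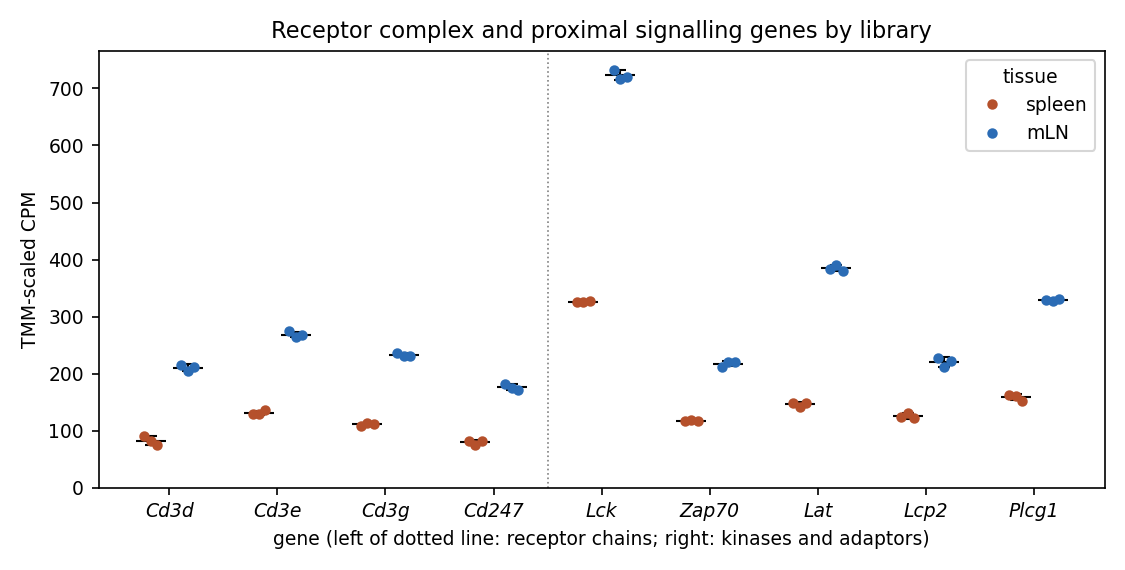
CPM of the 9 genes (vertical axis, from 0) in each of the 3 spleen and 3 mLN libraries; points are libraries and black bars the mean ± SD. The mLN libraries lie above the spleen libraries for every gene, with Lck the highest in both tissues (326 CPM in spleen, 722.9 in mLN).

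Of the receptor chains, Cd3e (chromosome 9, 44998740 to 45009627 on the minus strand, GRCm38), whose epsilon chain pairs with both the delta and the gamma chain, stood at 128.6, 130.2 and 135.7 CPM in the spleen libraries and 274.2, 264.1 and 267.6 CPM in the mLN libraries. The log2 fold change was 1.03 (SE 0.0354, edgeR adjusted p = 3.45e-26). Cd3g, the gamma chain gene, was at 109.2, 113.1 and 112 CPM in spleen and 236.8, 231.7 and 230.2 CPM in mLN, a log2 fold change of 1.06 (SE 0.0366). These 2 genes moved by nearly the same amount, with coefficients of variation between libraries of 1.48% to 2.82%.

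The delta chain gene Cd3d was the most variable of the 9 in spleen. It was at 91.5, 81.7 and 75.1 CPM there, with spleen replicate 1 highest, and at 216.1, 203.9 and 211.8 CPM in mLN. Its coefficient of variation in spleen was 9.92%, against 2.69% from counting alone, while in mLN it was 2.94%. The log2 fold change was 1.35 (SE 0.0502, edgeR adjusted p = 1.60e-17), the largest among the chains. Cd247 (chromosome 1, 165788681 to 165877277), the zeta chain gene, was at 82, 74.4 and 82.1 CPM in spleen and 181.8, 174.8 and 171.5 CPM in mLN, a log2 fold change of 1.15 (SE 0.0436). It overlaps Pou2f1 on the opposite strand, which had up to 1937 counts in a library. The strand setting of the counting is not given in the sources used here, so reads of the overlap cannot be assigned with certainty.

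Among the kinases, Lck (chromosome 4, 129548344 to 129573641), the Src-family kinase that starts the cascade, was the most abundant member by count. It was at 325.1, 326.1 and 326.9 CPM in spleen and 733, 716.1 and 719.6 CPM in mLN, with a log2 fold change of 1.15 (SE 0.0276, edgeR adjusted p = 1.10e-31). Its spread between spleen libraries, 0.282%, was below the 1.35% that counting alone would give. Zap70 (chromosome 1, 36761798 to 36782818), the kinase that binds the phosphorylated tails, was at 116.3, 119.5 and 117.1 CPM in spleen and 212.4, 219.8 and 221.2 CPM in mLN, a log2 fold change of 0.89 (SE 0.0368, edgeR adjusted p = 2.19e-23).

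The adaptors marked the extremes of the set. Lat (chromosome 7, 126363824 to 126369570), the membrane scaffold, had the largest rise, from 148.5, 142.4 and 147.9 CPM in spleen to 384.2, 391.3 and 380.4 CPM in mLN, with a log2 fold change of 1.40 (SE 0.0327, edgeR adjusted p = 4.86e-32). Without spleen replicate 1 that of Cd3d was as large (1.42, against 1.41 for Lat). Lcp2 (chromosome 11, 34046920 to 34092295), the cytosolic partner of that scaffold, had the smallest rise. It was at 124.7, 131.1 and 122.1 CPM in spleen and 228.1, 211.7 and 222.8 CPM in mLN, with a log2 fold change of 0.81 (SE 0.0384, edgeR adjusted p = 2.21e-21). Plcg1 (chromosome 2, 160731300 to 160775760), the enzyme at the end of this step, was at 163.5, 161.7 and 152.3 CPM in spleen and 329.5, 327.3 and 330.8 CPM in mLN, a log2 fold change of 1.05 (SE 0.0338). It overlaps Zhx3 on the opposite strand, which had up to 588 counts in a library.

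Levels were compared between genes in TPM (transcripts as a share of a fixed library total), which is corrected for transcript length. In spleen the order from the highest was Lck (383.8 ± 11.4 TPM), Lat (218.1 ± 8.03), Cd3g (197.9 ± 2.38), Cd3e (166.9 ± 5.88), Zap70 (98.2 ± 4.45), Cd3d (91.7 ± 8.90), Cd247 (85.8 ± 5.41), Lcp2 (75.1 ± 6.30) and Plcg1 (74.7 ± 2.69), each as mean ± SD with n = 3. From Zap70 down, each gene's libraries overlapped those of the next in the order. In mLN the first 4 places were the same, with Lck at 845.1 ± 28.6 TPM, Lat at 555.2 ± 3.96, Cd3g at 401.3 ± 9.33 and Cd3e at 322.8 ± 6.94. Cd3d followed at 229.6 ± 9.51 TPM, clear of Cd247 (185 ± 5.10) and Zap70 (183 ± 1.65), which overlapped each other. Plcg1 (143.7 ± 5.50 TPM) and Lcp2 (122.3 ± 6.13) were lowest and did not overlap. Within the complex, Cd3d transcripts per Cd3e transcript were 0.59, 0.54 and 0.51 in the spleen libraries and 0.72, 0.68 and 0.73 in the mLN libraries. For Cd3g the same ratio was 1.14 to 1.25 in spleen and 1.24 to 1.25 in mLN, which overlap.

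Whether the kinases and adaptors moved with the T-restricted chains was asked by taking each gene's ratio to Cd3e in the same library, a value that library scaling cannot change. The ratio of Lat was higher in mLN. Its log2 value was 0.21, 0.13 and 0.12 in the spleen libraries and 0.49, 0.57 and 0.51 in the mLN libraries, a difference of 0.37. For Lcp2 it was -0.04, 0.01 and -0.15 in spleen and -0.27, -0.32 and -0.26 in mLN, a difference of -0.22. Cd3d, itself a chain, differed by 0.32, Lck and Cd247 each by 0.12 and Zap70 by -0.14. The libraries of the tissues did not overlap for these 6 ratios. Since Cd3e was itself higher in every mLN library, many genes may separate in this way. Their share among all genes tested was not computed.

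By the exact two-sided permutation test these 6 ratios had p = 0.1, the smallest that 3 libraries against 3 allow, and 0.133 after adjustment over the 8 ratios. Plcg1 to Cd3e differed by 0.02 and Cd3g to Cd3e by 0.03, with overlapping libraries (exact permutation p = 1 and 0.3, adjusted 1 and 0.343). Relative to Cd3e the direction did not follow the class. The ratios that were higher in mLN without overlap were those of 2 chains, a kinase and an adaptor. The lower ones were those of a kinase and an adaptor. Cd3e had the smallest rise of the 4 chains (log2 fold change 1.03), so no other chain had a lower ratio in mLN. These directions thus depend on the choice of reference. Computed from TPM, the Zap70 difference was -0.05 with p = 0.4 by the exact permutation test. With 1 library left out, all 6 ratios kept their direction. The exact permutation p was then 0.2 for Cd247 without spleen replicate 2 (difference 0.08) or any one mLN library (0.11 to 0.13), for Cd3d without any one mLN library (0.31 to 0.33), for Zap70 without mLN replicate 1 (-0.11) and for Lcp2 without mLN replicate 2 (-0.20), and otherwise 0.1. As a description, the mean log2 CPM of the 4 chains minus that of the 5 kinases and adaptors was -0.75 to -0.68 in spleen and -0.64 to -0.59 in mLN. The chains' share of the summed TPM of the 9 genes went the other way, from 38.6% to 39.3% in spleen and from 38% to 38.2% in mLN.

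**Figure D2:**
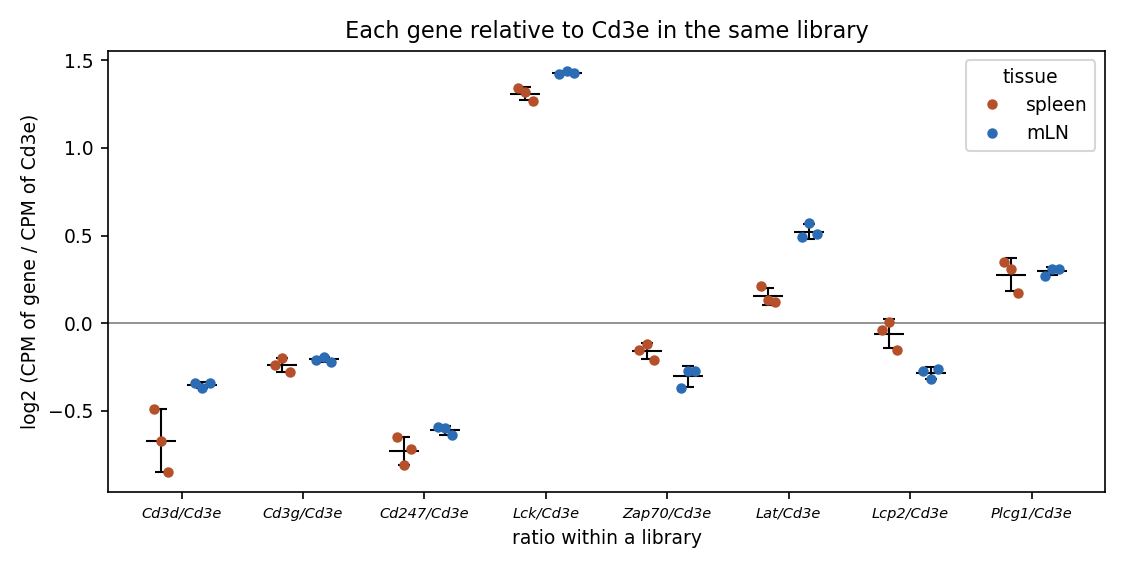
Log2 ratio of the CPM of each of 8 genes to that of Cd3e in the same library (vertical axis), for 3 spleen and 3 mLN libraries; points are libraries, black bars the mean ± SD. Lat and Cd3d shift upward in mLN (differences of 0.37 and 0.32), Lcp2 and Zap70 downward (-0.22 and -0.14), and Cd3g and Plcg1 overlap.

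The pathways of B cells and myeloid cells use a matching set of genes, and these moved the other way. All 12 genes of that list were lower in mLN, against 23.8% of all genes tested. The 11 reported here had log2 fold changes from -1.15 to -0.70. Syk, the kinase that stands in for Zap70 in B cells, was at 1025, 1020 and 981.1 CPM in spleen and 486.6, 483.6 and 461 CPM in mLN, a log2 fold change of -1.08 (SE 0.0275). Zap70 was thereby at 0.31 TPM per TPM of Syk in spleen and 1.26 in mLN. The Src-family kinase gene Lyn had a log2 fold change of -0.91, and Lck per Lyn in TPM went from 2.74 to 11.8.

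The other 3 pairs went the same way. Lat2, an adaptor of B cells and myeloid cells, had a log2 fold change of -0.81, and Lat per Lat2 in TPM was 0.851 in spleen and 4.12 in mLN. Blnk, the B-cell relative of SLP-76, had -0.86, and Lcp2 per Blnk was 0.64 and 2. Plcg2, the phospholipase of B cells, had -0.70, and Plcg1 per Plcg2 was 0.588 and 1.9. On the log2 CPM scale the 5 pair ratios were higher in mLN by 1.67 (Lcp2 to Blnk) to 2.20 (Lat to Lat2), with no overlap between tissues (exact permutation p = 0.1, adjusted 0.1 over the 5 pairs). In each pair every mLN library lay above every spleen library for the T-cell gene, and below for its counterpart. That separation fixed the lack of overlap and the p-value of the ratios, so they are no further test. The list also held the receptor genes Cd79a (-0.76) and Cd79b (-0.79), the receptor tail gene Fcer1g (-1.15), and the kinase genes Blk (-1.12), Fgr (-0.76) and Btk (-0.76), all as log2 fold changes.

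**Figure D3:**
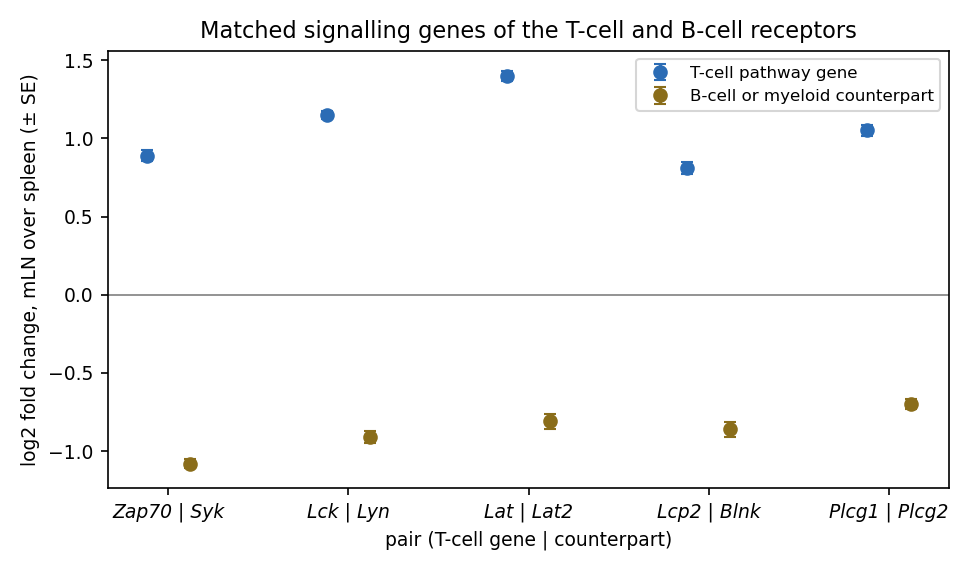
Log2 fold change mLN over spleen with its SE (vertical axis) for 5 pairs of a T-cell signalling gene (blue) and its counterpart in B cells and myeloid cells (brown), 3 libraries per tissue. Each T-cell gene is above 0 (0.81 to 1.40) and each counterpart below it (-1.08 to -0.70).

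Around the receptor, 7 of 10 tested genes for constant regions and coreceptors were higher in mLN and 0 lower. Over all genes tested these shares were 21.8% and 23.8%. Trac, the alpha constant gene, rose from 143.1 ± 5.43 to 340.3 ± 1.42 CPM (log2 fold change 1.25), Trbc1, which shares reads with its close copy Trbc2, by 1.31 and the coreceptor gene Cd4 by 1.39. The 3 genes that were not called, Tcrg-C1 (0.42), Tcrg-C2 (-0.09) and Tcrg-C4 (0.51), encode constant regions of the gamma chain. Trdc, the delta constant gene, rose from 8.60 ± 2.01 to 12.2 ± 0.785 CPM (log2 fold change 0.50, edgeR adjusted p = 0.00717). Its call was lost without spleen replicate 2 (log2 fold change 0.32, edgeR adjusted p = 0.103) and with the effective-length offset (0.51, edgeR adjusted p = 0.0659). Ptcra, the chain used by developing T cells in the thymus, had 0 counts in spleen and 1 in mLN and was not tested. These low gamma and delta values were chosen for mention after they were seen.

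The other kinases and phosphatases split: 6 of 11 were higher and 4 lower in mLN (median log2 fold change 0.29). The shares over all genes tested were 21.8% higher and 23.8% lower. Ubash3a, a T-cell phosphatase relative, had a log2 fold change of 1.39 and Txk, a Tec-family kinase, 1.32. The genes with the largest falls were Ptprj, a receptor phosphatase (-0.94), Tec (-0.49) and Ptpn6, which encodes the inhibitory phosphatase SHP-1 (-0.14).

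Of 25 other adaptors and exchange factors, 17 were higher and 4 lower (median 0.31). For this list and the next, the shares over all genes tested were 21.8% higher and 23.8% lower. Trat1, which encodes a transmembrane adaptor associated with the receptor complex, had a log2 fold change of 1.57, Skap1 1.39 and Sit1 1.22. The largest falls were Skap2, the relative of Skap1 found in many leukocytes (-0.66), Dok1 (-0.31) and the general adaptor gene Grb2 (-0.22). Of 19 downstream effectors, 11 were higher and 3 lower (median 0.17). Prkcq, the protein kinase C theta gene of T cells, rose by 1.48 on the log2 scale, the diacylglycerol kinase gene Dgka by 1.14 and the Ras activator gene Rasgrp1 by 0.63. The falls were Ppp3ca, a calcineurin subunit gene (-0.43), Map4k1 (-0.32) and the calcium channel gene Itpr1 (-0.25).

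**Figure D4:**
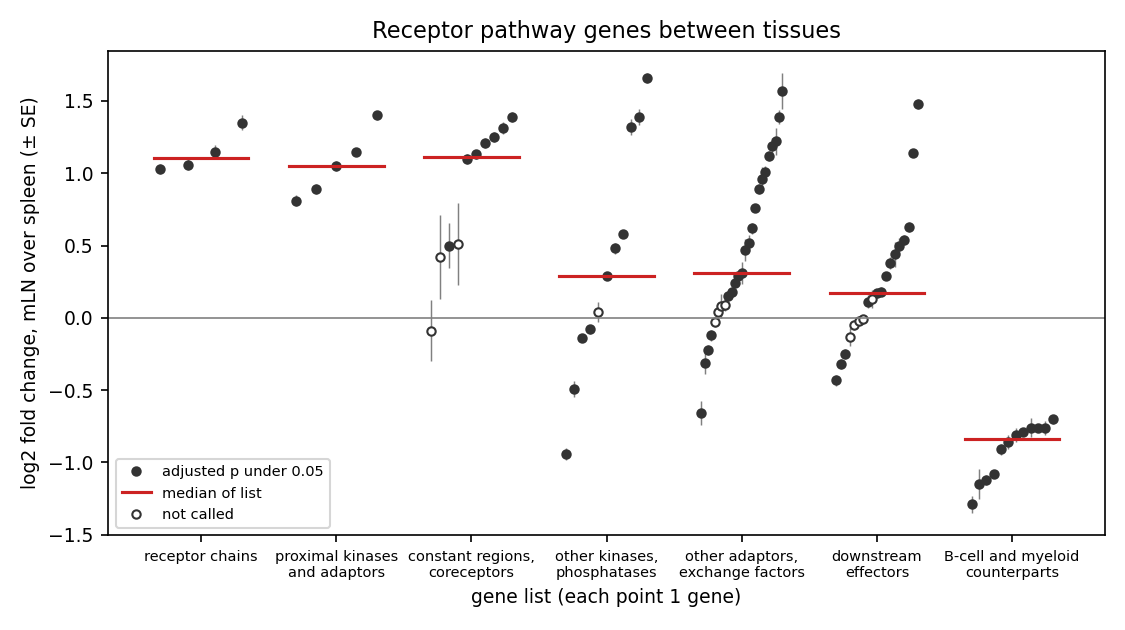
Log2 fold change mLN over spleen with its SE for every tested gene of 7 lists (vertical axis); filled points passed an adjusted p of 0.05, open points did not, and red lines are list medians. The 9 receptor and proximal signalling genes lie between 0.81 and 1.40, the B-cell and myeloid counterparts all below 0, and the other lists straddle 0.

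Markers of other cell types that carry some of these genes were mostly lower in mLN, against 23.8% of all genes tested. Of 9 NK markers, 8 were lower in mLN and 1, Eomes, higher. Their summed level was 328.1 to 343.5 CPM in spleen and 258.8 to 270.2 CPM in mLN, with S1pr5 at 27.1 ± 1.47 and 2.46 ± 0.455 CPM and Gzma at 60.4 ± 4.52 and 19.8 ± 0.305 CPM. All 7 mast cell and basophil markers were lower, summing to 104.5 to 108.9 CPM in spleen and 2.14 to 3.54 CPM in mLN. Ms4a2 was at 0 counts there, Prss34 went from 43.8 ± 2.37 to 0.131 ± 0.0618 CPM and Mcpt8 from 20.3 ± 1.68 to 0.111 ± 0.193 CPM.

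Of 7 megakaryocyte and platelet markers 2 passed the filter, both lower. The 7 summed to 11.7 to 12.5 CPM in spleen and 1.27 to 2.92 CPM in mLN, with Ppbp, Gp9 and Clec1b at 0 counts in mLN and Itga2b at 9.34 ± 0.514 and 1.83 ± 0.765 CPM. Monocyte and macrophage markers were lower for 6 of 7. Their summed levels were 952.6 to 971.6 and 638.9 to 653.1 CPM. Ace stood at 82.4 ± 1.56 CPM in spleen against 21.7 ± 1.52 CPM in mLN, and Adgre1 at 34.5 ± 1.85 and 13.5 ± 2.19 CPM. All 8 neutrophil markers were lower, summing to 1416 to 1445 CPM and 1.41 to 2.34 CPM, with Elane at 0 counts in mLN and Ltf at 330.9 ± 4.28 CPM in spleen against 0.0715 ± 0.0672 CPM in mLN. The 7 erythroid markers were lower too (1550 to 1607 and 10.8 to 13 CPM), with Car1 at 0 counts in mLN and Slc4a1 at 256 ± 2.60 CPM in spleen.

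Pan-T markers summed to 849.6 to 867.3 CPM in spleen and 2012 to 2045 CPM in mLN, with Lef1 at a log2 fold change of 1.97 and Tcf7 at 1.53. Pan-B markers summed to 4923 to 4962 and 2777 to 2822 CPM, with Cr2 at -1.47 and Fcrla at -0.94. The part of these cell types in the differences among the 9 genes was not tested.

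The genes whose profile over the 6 libraries was most like that of Cd3e, by root mean square distance between log2 CPM values centred on each gene's mean, were taken from the 9286 genes outside the 9 with at least 10 CPM on average. They were Rnf213 (distance 0.025), Ms4a4b (0.0338), Ccr7 (0.0346), Trbv13-2 (0.0348), Abtb2 (0.0351) and Trib2 (0.0352). Among the members Cd3g was at 0.028, with 1 gene nearer, and Plcg1 at 0.0577, with 30 nearer. Cd3d (0.191) and Lat (0.187) were farthest, with 275 and 260 genes nearer to Cd3e than they were. With 2 tissues and 6 libraries, this distance mostly records how close a gene's fold change is to that of Cd3e.

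By position, Cd3g, Cd3d and Cd3e lie within 40056 bases of chromosome 9, and the others are on chromosomes 1, 2, 4, 7 and 11. Cd3g (44969572 to 44980431, minus strand) and Cd3d (44981786 to 44987339, plus strand) are transcribed away from each other, with start sites 1355 bases apart. Neighbours were the nearest tested genes on each side of the members, leaving out genes that overlap a member, such as Pou2f1 and Zhx3. This gave 14 neighbours outside the 9 genes, of which 7 were higher in mLN, 4 lower and 3 not called. Over all genes tested 21.8% were higher and 23.8% lower. Gm15853, counted among the lower neighbours, was at 1.62 CPM in spleen and lost its call with DESeq2 and with the effective-length offset. It also lost the call without spleen replicate 1, spleen replicate 3, mLN replicate 2 or mLN replicate 3. The 7 neighbours that lie within 20000 bases of a member, a limit set after their values were seen, were the following. Spns1, whose annotated end lies 490 bases from the start of Lat, was at 57.6 ± 1.33 and 72.8 ± 2.43 CPM, a log2 fold change of 0.34 that fell to 0.20, and was not called, once effective lengths entered as an offset. Next to Cd247, Creg1 was lower in mLN (-0.84), as was Tmem131 next to Zap70 (-0.23). Ube4a, next to Cd3g, had 0.19, and Top1, next to Plcg1, 0.06 without a call. Beside Lck, Hdac1 had 0.13, a call lost under 4 alternatives (0.10 to 0.12), and Eif3i 0.23.

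Start-site windows are shown for the 4 chains and for Lcp2 and Plcg1, the members expressed most widely. The chains did not rise by the same amount, with log2 fold changes from 1.03 (Cd3e) to 1.35 (Cd3d). Every other member was higher in mLN too. Each window is 300 bases from RefSeq (GRCm38.p6), 250 before the start and 50 after it, 5′ to 3′ on the gene's strand. Capitals mark CAGGTG or its reverse complement CACCTG, an E-box that E proteins such as E2A and HEB, which act in lymphocyte development, can bind.
Cd3g, chr9:44980382-44980681, minus strand: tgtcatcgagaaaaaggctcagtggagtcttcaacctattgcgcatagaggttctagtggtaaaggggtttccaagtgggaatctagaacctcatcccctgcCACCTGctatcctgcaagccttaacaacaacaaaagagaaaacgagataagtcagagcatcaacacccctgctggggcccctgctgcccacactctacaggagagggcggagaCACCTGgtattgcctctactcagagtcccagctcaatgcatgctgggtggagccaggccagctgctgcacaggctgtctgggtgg
Cd3d, chr9:44981536-44981835, plus strand: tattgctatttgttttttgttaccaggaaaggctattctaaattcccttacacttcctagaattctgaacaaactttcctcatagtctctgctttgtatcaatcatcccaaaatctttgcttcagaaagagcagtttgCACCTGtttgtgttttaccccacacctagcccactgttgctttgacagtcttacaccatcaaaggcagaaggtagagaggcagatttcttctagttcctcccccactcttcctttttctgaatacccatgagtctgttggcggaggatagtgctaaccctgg
Cd3e, chr9:45009562-45009861, minus strand: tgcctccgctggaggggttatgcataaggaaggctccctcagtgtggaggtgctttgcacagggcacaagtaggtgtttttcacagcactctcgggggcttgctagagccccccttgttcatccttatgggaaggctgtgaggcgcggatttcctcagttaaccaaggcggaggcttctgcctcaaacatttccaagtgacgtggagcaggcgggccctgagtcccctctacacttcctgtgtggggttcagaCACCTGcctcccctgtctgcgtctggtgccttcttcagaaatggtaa
Cd247, chr1:165788431-165788730, plus strand: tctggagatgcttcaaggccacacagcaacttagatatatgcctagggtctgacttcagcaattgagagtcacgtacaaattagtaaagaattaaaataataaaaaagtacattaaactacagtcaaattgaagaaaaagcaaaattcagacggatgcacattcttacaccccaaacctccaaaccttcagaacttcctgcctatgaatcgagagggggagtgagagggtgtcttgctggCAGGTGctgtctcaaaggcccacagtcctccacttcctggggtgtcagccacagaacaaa
Lcp2, chr11:34046678-34046977, plus strand: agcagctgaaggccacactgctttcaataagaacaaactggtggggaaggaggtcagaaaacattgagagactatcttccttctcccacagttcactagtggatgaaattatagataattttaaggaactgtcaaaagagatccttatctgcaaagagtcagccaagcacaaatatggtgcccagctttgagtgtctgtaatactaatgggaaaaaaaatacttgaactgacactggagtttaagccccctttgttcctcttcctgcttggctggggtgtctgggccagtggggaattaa
Plcg1, chr2:160731060-160731359, plus strand: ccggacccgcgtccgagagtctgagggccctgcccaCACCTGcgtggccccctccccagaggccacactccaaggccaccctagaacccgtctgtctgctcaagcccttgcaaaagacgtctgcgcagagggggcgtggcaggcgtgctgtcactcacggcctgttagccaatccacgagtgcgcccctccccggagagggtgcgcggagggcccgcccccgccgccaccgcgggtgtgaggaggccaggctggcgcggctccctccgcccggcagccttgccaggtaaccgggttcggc

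All 4 chain windows held this E-box, once in Cd3d, Cd3e and Cd247 and in 2 places in Cd3g. Over all 12 RefSeq windows of the 9 genes it was found in 9, and in 7 of the genes (not in Lat or Lcp2), against 20.2% of 32851 windows of the same length. Besides CAGGTG, 13 other short motifs were searched on both strands, some of which contain each other, and CAGGTG was chosen for display after the matches were seen. The ETS core AGGAAG was in 9 of 12 windows (35.4% of all windows) and its longer form ACAGGAAG in 4 (3.6%). TGTGGT, a RUNX core, was in 3 (16.8%), and CTTTGA, a TCF/LEF core, in 4 (16%). CACCC was in 10 (57.5%), GGGCGG in 3 (35.7%), CAGCTG in 2 (16.3%), AGATAA in 2 (11.2%) and CTTTGTT in 2 (5.9%). CAGATG (17.2%), CCGGAAG (8.9%), TGCGGT (6.5%) and TATAAA (13.6%) were in 0 of the 12. The windows also differed in CpG content: Lcp2 had 0 CpG dinucleotides, Cd3d 1, Cd247 3, Cd3g 4 and Cd3e 8, while Plcg1 had 27 with a GC content of 72%. The median over all windows was 7. A match of letters is a description of the window and not evidence of binding.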

How the data were processed

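PolyA RNA of CD45+ cells was measured in 3 spleen and 3 mLN libraries made with a directional kit, with tissue taken from the labels. Deposited by the authors was 1 gene table per library with expected counts (estimates that need not be whole), TPM and effective lengths, per the file headers. STAR, RSEM and mm10 are named in the submitters' processing notes; their versions, the annotation and the strand setting were not found in the sources used here. Of 55487 gene identifiers 55227 matched a symbol in GENCODE M21 (GRCm38).

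Expected counts were rounded and filtered with filterByExpr, leaving 14427 genes, scaled by TMM and tested with edgeR 4.0.16 (robust quasi-likelihood, with a term for tissue alone; R 4.3.3). Benjamini-Hochberg adjustment covered every gene tested, with calls under 0.05. Standard errors come from the F statistic. The assumed coefficients of variation, 0.2 and 0.4, were set for all genes in edgeR's likelihood-ratio test. Levels are TMM-scaled CPM, as mean ± SD with n = 3. Within-library ratios were tested by exact permutation, two-sided, with 20 assignments. The test was also tried on simulated counts.

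The 9 members were named whatever their values. From each pathway list up to 3 called rises and 3 called falls were named, from the list of counterparts all genes, and from each marker list up to 2 called genes with the largest change and at least 5 CPM in a tissue. The 6 genes most like Cd3e were named by distance. Values of 4 genes on these lists are not reported here, though list counts and sums include them. Members and lists were chosen with earlier results of these data known. Alternatives were DESeq2 1.42.0, no or a stricter filter (5 CPM in 3 libraries), an effective-length offset, abundant gene classes left out, a replicate block, TPM in ratios and each library left out.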

Additional observations from a re-analysis of the deposited data

How the results depend on the processing

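The 9 fold changes kept their direction and stayed past the threshold in all 108 combinations of gene and alternative, the assumed coefficients of variation aside, with log2 values from 0.75 to 0.84 for Lcp2 and from 1.38 to 1.41 for Lat. Genes called over the whole table numbered 3139 higher and 3430 lower. By the likelihood-ratio test with an assumed coefficient of variation of 0.2 these were 934 and 1934, with 0.4 197 and 726. At 0.4 no member was called, with log2 fold changes of 1.35 (Cd3d), 1.03 (Cd3e), 1.06 (Cd3g), 1.15 (Cd247), 1.15 (Lck), 0.89 (Zap70), 1.40 (Lat), 0.81 (Lcp2) and 1.05 (Plcg1), the same values as with the estimated spread. Leaving out T-cell receptor and other abundant classes left 3 genes higher in the list of constant regions and coreceptors, because its constant genes are then not tested. Of 104 alternatives for the within-library ratios, 102 kept the direction. The exceptions were Plcg1 to Cd3e, at -0.01 in TPM and between -0.04 and 0.05 with a library left out. With the replicate number as a block, 3073 genes were higher and 3382 lower, and no call of a member changed. Same-numbered libraries of the tissues had correlations of deviations of -0.008 to 0.028, and differently numbered ones of -0.039 to 0.012. With 3 libraries per tissue such values cannot show whether a number stands for a shared animal. The labels do not say what a number shares, so the main test did not pair samples. With 3 libraries per tissue no ratio test can fall below 0.1.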
